A study of Mus musculus with 2 samples.

Results

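Ajap1 encodes the adherens junctions-associated protein 1, and its surroundings hold one of the denser groups of peaks of the histone variant macroH2A1 in E14 cells. The group was defined from a deposited peak list as the 6 regions assigned to Ajap1 together with every other region listed between positions 152400000 and 153300000 of chromosome 4, a window of 900 kb in mouse build mm9. It comprised 9 of the 2560 listed peaks, of which 6 were assigned to Ajap1 and 3 to neighbouring genes without a symbol. The number of peaks was the reason for choosing this gene, so that number and the closeness of the peaks are descriptions and no test was applied to them.

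The study examined macroH2A1 by chromatin immunoprecipitation and sequencing in E14, an established mouse embryonic stem cell line, grown untreated on gelatine in medium with serum and leukemia inhibitory factor. There were 2 libraries, 1 from an antibody raised against a fragment of mouse macroH2A1 and 1 from IgG, an antibody with no specific target, both from the same line in the same state. There was 1 library per antibody, so no value below has a replicate error. The list gives the position of each peak and the gene it was assigned to, with no read count, enrichment or score, so the depth behind each peak is unknown. The IgG library was not analysed here, and the list holds no expression values by which the cell type or the activity of Ajap1 could be checked.

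MacroH2A1 is a form of histone H2A that carries a large globular macro domain outside the nucleosome core. It is known from repressed chromatin, including the inactive X chromosome and silent developmental genes, and also occurs at some active genes. Ajap1, also called Shrew-1, is a single-pass membrane protein that associates with the E-cadherin and catenin complex of adherens junctions and with basigin, an inducer of matrix metalloproteinases. It is expressed in epithelial cells and in brain.

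In the list, Ajap1 (ENSMUSG00000039546) runs from position 152747330 to 152856939 of chromosome 4 on the minus strand, a gene of 109610 bp. Its start is therefore at the higher coordinate, and upstream means higher positions. Of its 6 peaks, 3 lay upstream of the start and 3 downstream of the gene's end, and none overlapped the gene. Distances below count the bases between the start of the gene and whichever edge of the peak is closer.

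The start of Ajap1 that no peak covered is CpG-rich. The 250 bases before the RefSeq start in build GRCm38.p6 are shown, with each CG dinucleotide in capitals. In the list, the nearest peak was 12.4 kb from the Ajap1 start. An uncovered start is not particular to Ajap1, since the median distance from the start over all peaks was 32.2 kb. The RefSeq start need not be the start used in the peak list, which belongs to another build.
Ajap1 promoter: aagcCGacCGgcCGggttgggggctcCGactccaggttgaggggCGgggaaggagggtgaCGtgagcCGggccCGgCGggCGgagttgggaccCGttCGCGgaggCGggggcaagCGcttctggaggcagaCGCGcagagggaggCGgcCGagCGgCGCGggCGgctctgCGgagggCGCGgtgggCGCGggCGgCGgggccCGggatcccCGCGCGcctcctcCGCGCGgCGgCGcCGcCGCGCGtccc

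This stretch held 43 CG dinucleotides and was 81.2% G or C. Over 17274 promoters of protein-coding genes, 1 per gene and cut in the same way, the median was 10 CG dinucleotides and 55.6% G or C, and 0.851% of promoters held as many CG dinucleotides as Ajap1 or more. The letters GGGCGG, known as the GC box, occurred 4 times on the strand shown and 0 times on the opposite strand, and 43.2% of promoters held them on either strand. The letters TATAAA were absent from both strands of this stretch and present in 12.5% of promoters. A match of letters describes the sequence and is not a binding site. The sequences under the peaks themselves are not shown, because no genome of build mm9 was used here.

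The upstream peak closest to the gene began 12.4 kb before the start, at chr4:152869300-152871400. It was the widest of the 6 at 2101 bp, wider than 91.3% of all listed peaks. No other peak of Ajap1 lay within 100 kb of the start. Across the list, 722 of 2560 peaks (28.2%, 95% Wilson interval 26.5 to 30.0%, counting error only) were as close to the start of their gene or closer.

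The other 2 upstream peaks formed a distant pair. The first was at chr4:153029900-153031100, 173 kb from the start, and the second at chr4:153041450-153042550, 185 kb from the start. A gap of 10.3 kb separated them, and together they spanned 12.7 kb. They were the narrowest peaks of the window, with widths of 1201 bp and 1101 bp, which exceeded 13.9% and 5.78% of the list. Between the pair and the peak nearest to the start lay 158 kb without a listed peak.

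The 3 downstream peaks stood close together and were alike in width. Counted away from the gene, they were at chr4:152718350-152720000 (1651 bp), chr4:152691100-152692850 (1751 bp) and chr4:152668300-152670000 (1701 bp). They lay 27.3 kb, 54.5 kb and 77.3 kb past the end of the gene, which is 137 kb, 164 kb and 187 kb from its start. The gaps between them were 25.5 kb and 21.1 kb, so the 3 peaks fell within 51.7 kb. Their widths differed by 100 bp at most, and each was above the median of the list.

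**Figure D1:**
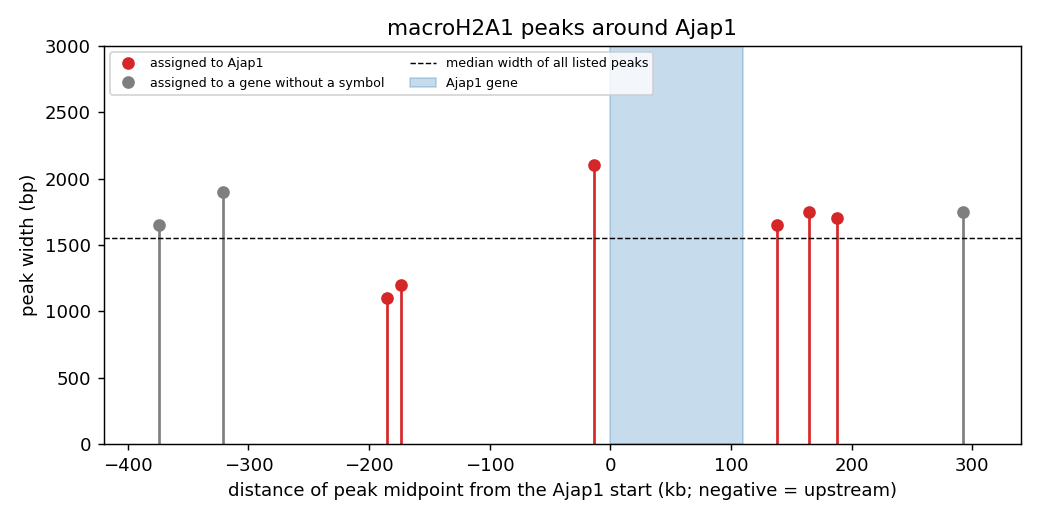
Position and width of the 9 macroH2A1 peaks around Ajap1. The x axis gives the distance of each peak's midpoint from the gene start in kb, with upstream negative, the y axis the peak width in bp, the band the gene and the dashed line the median width of all 2560 peaks (1551 bp). No stem falls in the gene, and the pair at -174 and -185 kb is the only one under the dashed line.

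The gene thus sat in a stretch of 149 kb without a listed peak, made up of the gene, 27.3 kb past its end and 12.4 kb before its start. For peaks assigned to genes of similar length (80 to 140 kb, 145 other genes with a symbol), 57 of 176 peaks (32.4%, 95% Wilson interval 25.9 to 39.6%) overlapped the gene. Over the whole list the share was 410 of 2560 (16.0%, 14.6 to 17.5%). With 6 peaks that were chosen as a group, the difference from Ajap1 was not tested.

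Most Ajap1 peaks lay farther from the start than the median of the list. The median distance of the 6 peaks was 169 kb, against 32.2 kb over all peaks, and 5 of the 6 lay more than 100 kb away, against 627 of 2560 in the list (24.5%, 95% Wilson interval 22.9 to 26.2%). The length of the gene enters here, since any peak past the end of this gene of 110 kb lies more than 100 kb from its start. This holds for the 3 downstream peaks, which lay 27.3 to 77.3 kb past the end. Genes with a symbol in the list had a median length of 30.3 kb. The outermost peaks on the 2 sides were nearly equally far from the start, at 187 kb downstream and 185 kb upstream. Each peak was assigned by the authors to the gene with the nearest start, which sets how far a peak of Ajap1 could lie. From the starts of the neighbouring genes in the list, the assignment would pass to another gene 235 kb downstream of the Ajap1 start. On the upstream side it would pass at 197 kb. Genes that have no listed peak were left out, so both are upper limits. The upper peak of the distant pair ended 11.2 kb short of the upstream limit.

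The widths of the Ajap1 peaks did not stand together relative to the list. The median over the 6 was 1676 bp, against 1551 bp over all peaks (quartiles 1301 and 1813.5 bp) and 1501 bp over the 171 peaks of chromosome 4 outside the window. Of the 6, 4 were wider than the list's median, against 48.6% of all peaks (95% Wilson interval 46.6 to 50.5%), and 2 were narrower than its lower quartile. All listed starts fall on multiples of 50 bp, so widths are resolved in steps of that size. Together the 6 peaks covered 9506 bp, or 2.54% of the 374 kb from the first to the last.

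**Figure D2:**
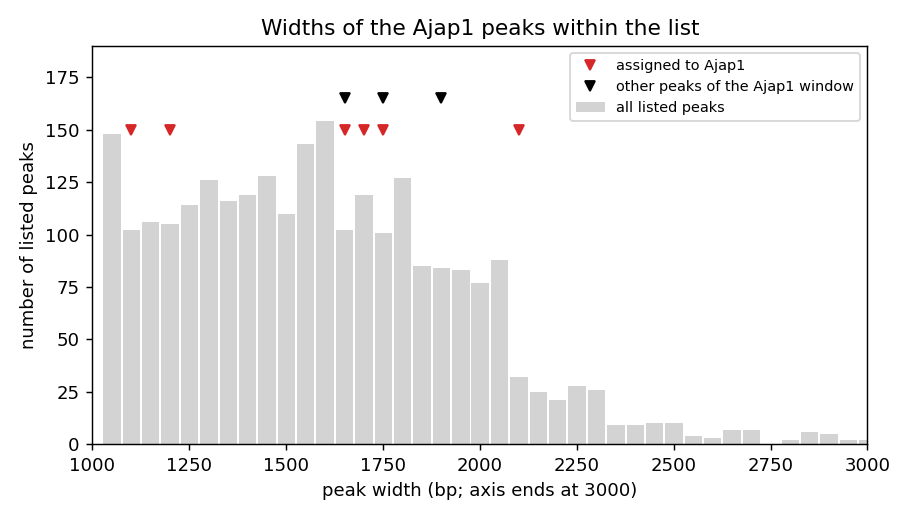
Widths of the Ajap1 peaks against all 2560 listed peaks. Bars count listed peaks per width in bp, with the axis ending at 3000 bp and 17 wider peaks not drawn, and triangles mark the 6 peaks assigned to Ajap1 and the 3 other peaks of the window. The triangles fall in 2 places, 2 near the narrow end and 7 between 1651 and 2101 bp.

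The 3 remaining peaks of the window flanked those of Ajap1 and were given to 2 short genes without a symbol. The lowest was at chr4:152563600-152565350 (1751 bp), 292 kb from the Ajap1 start on the downstream side and 176 kb from the start of its assigned gene, ENSMUSG00000080360, which is 95 bp long. On the other side, chr4:153176950-153178850 (1901 bp) and chr4:153230000-153231650 (1651 bp) were assigned to ENSMUSG00000077519, a gene of 132 bp, from whose start they lay 71.6 kb and 18.8 kb. They were 320 kb and 373 kb upstream of the Ajap1 start. All 3 were wider than the list's median, which made 7 of the 9 peaks of the window.

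By their midpoints, 4 of the 9 peaks lay on the downstream side of the Ajap1 start and 5 on the upstream side. From the lower edge of the first to the upper edge of the last, they spanned 668 kb. When only genes with a symbol in the list could receive a peak, 8 of the 9 went to Ajap1, and the topmost peak went to Trp73, the gene of the p53 relative p73. That count leaves out genes that have no listed peak, so it is an upper figure. This way of counting was chosen after the data were seen.

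The order of genes around Ajap1 was taken from the RefSeq table of assembly GRCm38.p6, used for names and order alone. The next protein-coding gene past the end of Ajap1 was Nphp4, whose product nephrocystin-4 belongs to the base of cilia, and the next before its start was A430005L14Rik, followed by Dffb, the nuclease subunit of the DNA fragmentation factor. No listed peak was assigned to these 3 genes. Between Nphp4 and A430005L14Rik the table held 15 other genes, none of them protein-coding. Past the end of Ajap1 they were 5 long non-coding RNA genes and 1 pseudogene, and before its start 8 long non-coding RNA genes and 1 small nucleolar RNA gene. Matched by symbol, 1 of the 15 had a listed peak, Gm833. The genes without a symbol that received the other peaks of the window could not be matched this way. They may be among the 15, so the count is a lower figure.

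The peak of Gm833 was the first outside the window on the lower side, at chr4:152140350-152142300 (1951 bp), 421 kb below the nearest peak of the window. The first on the upper side lay inside Trp73, at chr4:153499900-153501900 (2001 bp), 268 kb above the window's last peak. Neighbouring peaks within the window were at most 158 kb apart. The window edges thus fell in gaps that were wider than any inside it.

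Peaks near Ajap1 had close neighbours. Of the 6, 5 had another listed peak within 50 kb, against 535 of the 2558 distinct regions in the list (20.9%, 95% Wilson interval 19.4 to 22.5%). The exception was the wide peak before the gene start, whose nearest neighbour was 149 kb away, across the gene. The interval over the list gives counting error only and treats regions as independent, although close regions count each other. The median gap to the nearest peak was 21.1 kb for the 6 and 224 kb over the list (quartiles 72.4 and 568 kb). These closeness values follow from the choice of a gene with many peaks and support nothing further.

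For scale, each chromosome was divided into adjoining stretches of 900 kb up to its last peak, with 1 stretch of chromosome 4 set on the Ajap1 window. Of 2834 stretches, 5 (0.176%) held 9 peaks or more, and 1365 (48.2%) held none. Whether reads could be mapped in a stretch was not considered, so some empty stretches may have been unable to hold a peak. Chromosome 4 had 180 peaks and a mean of 1.05 per stretch, and the Ajap1 window was 1 of 2 of its 172 stretches with 9 peaks. The stretches with more were 2 on chromosome 5 and 1 elsewhere, up to 15 peaks. On either side of the Ajap1 window, the adjoining stretch held 4 peaks, also above the mean of chromosome 4. The window was placed around known peaks and the other stretches were not, so its rank is a description.

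**Figure D3:**
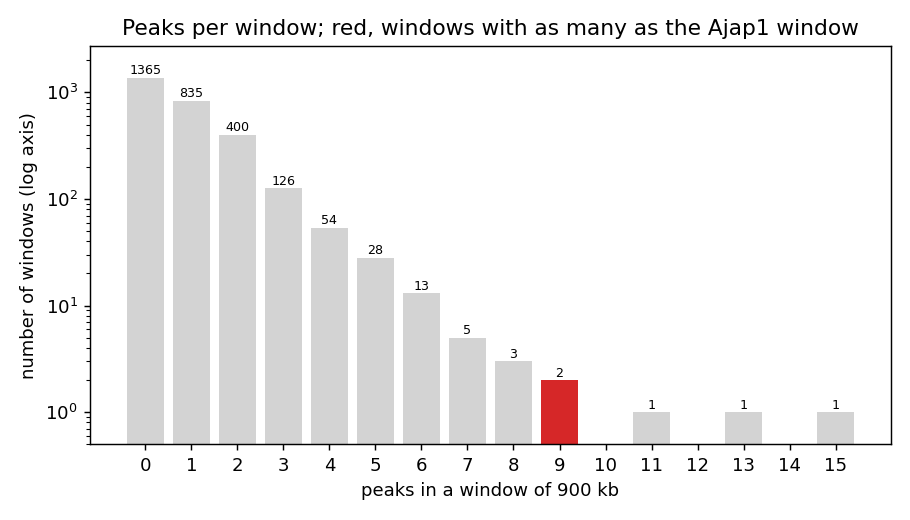
Number of listed macroH2A1 peaks per stretch of 900 kb over all chromosomes. The x axis gives the peaks in a stretch, the y axis (log scale) the number of stretches, printed above each bar, and red marks the 2 stretches with 9 peaks, the Ajap1 window among them. Only 3 of 2834 stretches lie to its right.

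Few genes had as many peaks. Of the 21631 protein-coding genes of the RefSeq table on chromosomes 1 to 19 and X, 0.00925% had 6 or more assigned peaks, which were Ajap1 and Sez6l. This share is the one on which the gene was chosen. Of all 2132 genes named in the list by an Ensembl identifier, 1816 (85.2%) had 1 peak and 5 had 6 or more, of which 3 had no symbol and 1 of these had 9.

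Of the 12 symbols with 4 or more peaks, Ajap1 had its peaks spread over the longest stretch. Its 374 kb compared with 293 kb for the 4 peaks of Ttll7, a tubulin polyglutamylase gene, and with 111 kb for the 6 peaks of Sez6l, a gene of a neuronal membrane protein. Those of Tbx5, a heart and forelimb transcription factor gene, spanned 140 kb (5 peaks), and those of Elfn1, a synaptic membrane protein gene, 31.7 kb (5 peaks). The median gap between neighbouring peaks was 25.5 kb at Ajap1, 20.7 kb at Sez6l, 20.3 kb at Tbx5 and 4.10 kb at Elfn1. Median widths were 1676 bp at Ajap1, 1701 bp at Sez6l, 1651 bp at Tbx5 and 1951 bp at Elfn1.

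Peaks on both sides and none over the gene were seen at 5 of the 12, namely Ajap1, Insig1, Uncx, Gm5420 and 1700029F12Rik. The genes other than Ajap1 were short, from 3.13 to 12.5 kb, and Ajap1 was 110 kb. Of the 4 genes longer than 100 kb among the 12, Sez6l, Ttc29 and Ttll7 each had 1 peak over the gene. Sez6l and Ajap1, with 6 peaks each, thus differed in layout, since 5 of the Sez6l peaks lay upstream and 1 in the gene. No test is given for these layouts, since the genes were chosen by their peaks.

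**Figure D4:**
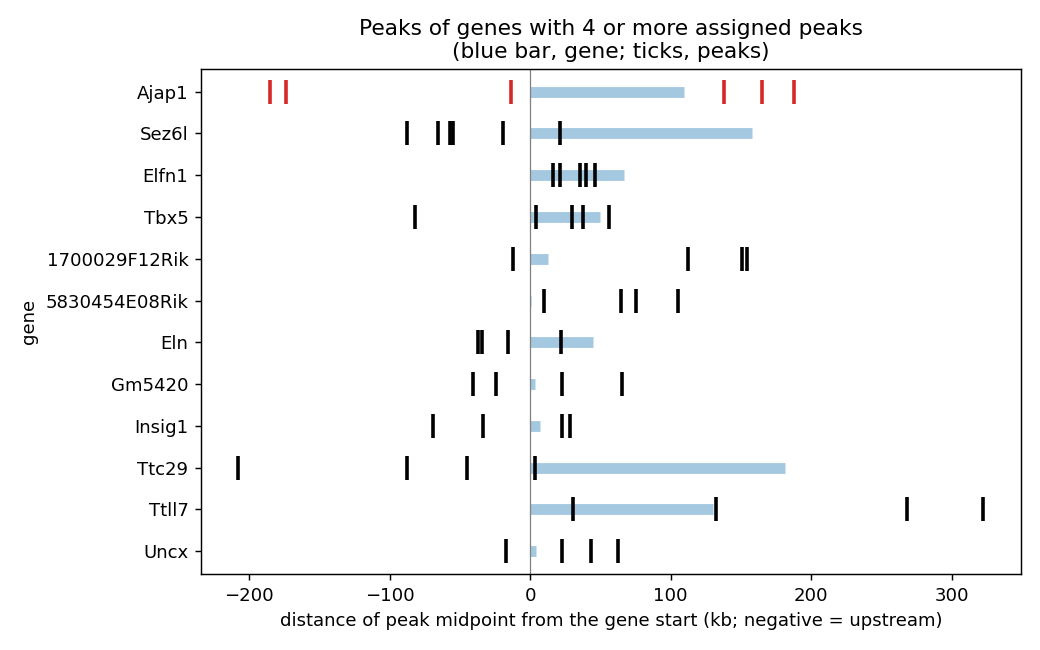
Peaks of the 12 gene symbols with 4 or more assigned peaks. The x axis gives the distance of each peak's midpoint from the gene start in kb (negative, upstream), rows are genes, blue bars the genes drawn to scale and ticks the peaks, with Ajap1 in red. The Ajap1 ticks stand on both sides of a bar of 110 kb that holds none.

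Promoters of these genes varied in base content. With the same 250-base stretch, matched for 8 of the 12 symbols, Ajap1 had the most CG dinucleotides at 43, followed by Insig1 with 34, Sez6l with 26 and Uncx with 20. Ttll7 had 9, Ttc29 8, Elfn1 6 and 1700029F12Rik 2. By number of peaks, Ajap1 and Sez6l, with 6 each, had 43 and 26, and Elfn1, with 5, had 6. The matched symbols with 4 peaks ran from 2 to 34. Tbx5, with 5 peaks, was not matched, and a relation to the number of peaks was not tested.

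A list of 28 genes held adherens junction genes together with partners and relatives of Ajap1 that are not themselves junction genes, such as the GABA-B receptor subunits. Of the 28, 5 had at least 1 assigned peak (17.9%, exact 95% binomial interval 6.06 to 36.9%), against 6.14% of the 21631 protein-coding genes, and none had more than 1. The list was not tested as a set, and the 6.14% lies just inside the interval. A peak over the gene or within 10 kb of its start was found for 3 of the 28 (Gabbr2, Actn1 and Lmo7), against 2.74% of the protein-coding genes. Gabbr2 and Actn1 counted by distance from the start, and Lmo7 only because its peak lay inside a gene of 204 kb. Gene length was not taken into account in this comparison, which was not tested.

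Among the partners and relatives of Ajap1, 1 of 6 had a peak. It was Gabbr2, a subunit of the GABA-B receptor, whose other subunit is known to bind Ajap1 outside the cell. The peak was at chr4:47004750-47006450 (1701 bp) and ended 0.164 kb upstream of the gene start, so it lay much closer to its start than any Ajap1 peak. Bsg, Cdh1, Ctnnb1, Pianp and Gabbr1, which encode basigin, E-cadherin, beta-catenin, a relative of Ajap1 and the other receptor subunit, had no assigned peak.

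Among cadherins and catenins, 1 of 11 had a peak. It was Cdh5, the cadherin of blood vessel walls, and the peak lay 323 kb upstream of its start at chr8:106301400-106302800 (1401 bp). Of the nectins and the proteins that link junctions to actin, 3 of 11 had one. The peak of Actn1, an actin crosslinker, was 6.20 kb upstream of the start (1301 bp). That of Lmo7, an afadin-binding protein gene, lay inside the gene, 170 kb from its start (1351 bp). That of Nectin1, listed under its older symbol, was 92.1 kb from the start on the downstream side (1101 bp). All 5 genes had 1 peak each, and 1 of the 5 peaks was wider than the list's median of 1551 bp.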

How the data were processed

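Reads of the macroH2A1 and IgG libraries were mapped with Bowtie to mouse build NCBIM37 (mm9), per the submitters' processing notes. The authors deposited 1 table of 2560 peaks with positions, widths and distances in base pairs. Each peak name starts with CCAT, which is also the name of a peak-calling program, and the columns follow ChIPpeakAnno, per the file headers. Threshold, control and version of the caller are not stated there. The header lacks a name for the first column, so names were shifted by 1 column, and every width then equalled end minus start plus 1. Distances were recomputed to the nearest base. In and next to the window, the deposited value runs to the lower coordinate of the peak at genes of either strand. For the downstream peaks of Ajap1 that is the farther edge. Calculations used Python 3.11.15 with pandas 2.3.3, and counting functions were tested on simulated data. No paired analysis or test between groups was run with 1 library per group.

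Symbols were matched to RefSeq (GRCm38.p6) by symbol or unambiguous synonym on the same chromosome, and no coordinates were converted between builds. Genes named were those with a peak in the window, their neighbours, symbols with many peaks and the 28 junction and partner genes. Members and lists were chosen with earlier results of these data known.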

Additional observations from a re-analysis of the deposited data

How the results depend on the processing

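With only the peaks whose names carry the lower numbers (up to 1280), or only peaks wider than the list's median, Ajap1 kept 4 of its 6 peaks and the window 7 of 9. With only the higher-numbered peaks both numbers were 2, the distant upstream pair. The meaning of these numbers is not stated. A window of equal length centred on the gene start held 9. The median spacing was 25.5 kb between Ajap1 peaks and 77.0 kb over all peaks of the window, which includes 3 outer peaks that stand farther apart. The median width was 1726 bp without the distant pair, a setting chosen after the data were seen, and 1701 bp over the window. The median distance from the start was 169 kb by midpoint and by the deposited values. Of the 28 junction and partner genes, 3 instead of 5 had a peak overlapping the gene or within 10 kb of its start. No paired analysis was possible because each antibody has 1 library. Unknown depth and the absence of scores limit every value, and a stretch without a listed peak may hold macroH2A1 below the caller's threshold.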
